A study of Homo sapiens with 6 samples.

Results

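The 10 genes described here are EGR1, EGR2 and EGR3, which encode zinc finger transcription factors, IER2 and IER3, the MAPK phosphatase genes DUSP1, DUSP4 and DUSP6, and the Sprouty genes SPRY2 and SPRY4. They were found by symbol among the 19899 genes of the deposited table, and all 10 were detected well enough to be tested, as were 14246 genes in all. RNA-seq was performed on COV434, an established line that the study counts among its cell lines of SCCOHT, the hypercalcemic small cell cancer of the ovary. Control cells (n = 3) received the pCDNA3-neo plasmid and BRG1 cells (n = 3) the PBJ5-BRG1 plasmid, each together with a puromycin resistance plasmid. Selection with puromycin at 2 to 3 µg/ml began after 24 hours in both groups and lasted 3 days, after which all cells were harvested, so that each culture was sampled once. BRG1 came from a plasmid in transfected, selected cells, and the plasmid backbone differed between groups along with BRG1, so that their effects cannot be told apart.

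Immediate early genes are transcribed within minutes of a growth factor or stress signal, from promoters that are already occupied and without new protein synthesis. Much of that signal runs through the RAS, RAF, MEK and ERK kinase cascade to serum response factor (SRF) and its ETS partners. SRF binds the CArG box, and the same signal reaches factors at the cyclic AMP response element (CRE). The cascade also induces its own inhibitors. DUSP proteins remove phosphate from MAP kinases, and Sprouty proteins dampen receptor signaling upstream of ERK. SWI/SNF complexes, of which BRG1 is an ATPase, remodel the chromatin at regulatory elements.

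Matches to such elements set some of these promoters apart and are shown first. The set of promoter sequences used, from RefSeq (GRCh38.p14), ran from 250 bases before to 50 bases after the start site. It held 7 of the 10 genes and lacked EGR3, IER3 and DUSP4. Both strands were searched for the CArG box, the CRE (TGACGTCA), the AP-1 site (TGANTCA), the EGR site (GCGNGGGCG) and an ETS site (CCGGAAG). Each line below is a window of 30 bases on the strand of its gene, 5′ to 3′, with the matched letters in capitals. The EGR1 windows are chr5:138465364-138465393 and chr5:138465386-138465415 (plus strand), the EGR2 window is chr10:62816418-62816447 (minus strand) and the DUSP1 window is chr5:172771302-172771331 (minus strand).
EGR1 CArG box, distal: gccggtcctgCCATATTAGGgcttcctgct
EGR1 CArG box, proximal: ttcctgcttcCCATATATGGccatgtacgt
EGR2 CArG box: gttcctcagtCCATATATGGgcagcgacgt
DUSP1 CRE: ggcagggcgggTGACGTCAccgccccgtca

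EGR1 held 2 CArG boxes and EGR2 held 1, whereas 1.29% of 35116 promoters of the same length held any. The CRE was found in DUSP1 and in 1.85% of all promoters. EGR1 and SPRY4 each held an EGR site (9.43% of all promoters) and IER2 a match to the ETS letters CCGGAAG (10.3%). Other forms of the ETS site were not searched. No AP-1 site (7.71% of all promoters) lay in any of the 7 promoters, and DUSP6 and SPRY2 matched none of the letters searched. The promoters of EGR3, IER3 and DUSP4 were not searched. These matches describe sequence and were not tested as binding sites.

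The libraries held 29699741 to 63613710 estimated counts, and values are given as CPM, that is counts scaled to library size with TMM factors. SMARCA4, the gene for BRG1, checks the labels. Its level was 33.9 ± 2.59 CPM (SD, n = 3) in Control and 1919 ± 343 (n = 3) in BRG1 cells, plasmid transcripts included (log2 fold change 5.82, edgeR adjusted p 6.1e-06). Of 8 granulosa markers 4 were under 1 CPM in every sample, among them FOXL2 and AMHR2, and the list summed to 8.77 to 11.6 CPM in Control and 20.8 to 44 in BRG1 samples. The leukocyte genes CD3E and CD14 were also under 1 CPM throughout, and PTPRC had between 7.38 and 15.9 CPM over both groups. The endothelial list stood apart, with a summed level of 0.586 to 1.98 CPM in Control and 72.6 to 83.9 in BRG1 samples. Most of it was VWF, PECAM1 stayed under 1 CPM, and the part of the marker lists in the results below was not tested. The fibroblast list, mostly COL3A1, summed to 94.3 to 171 CPM in Control and 78.9 to 187 in BRG1 samples, while its low member PDGFRA, a growth factor receptor gene chosen after its values were seen, rose from 0.064 to 0.21 CPM to 0.88 to 2.33 (edgeR adjusted p 0.00851). A bulk library cannot tell fewer cells with a transcript from less RNA per cell.

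Whether BRG1 reexpression changed these genes was examined in an edgeR fit over all genes, and a gene was called at an adjusted p under 0.05. DUSP1, EGR3 and IER3 had the largest increases, between 4.4-fold and 5.7-fold in the fit that pairs samples by replicate number, followed by DUSP4 at 2.1-fold. EGR1, EGR2, IER2, DUSP6, SPRY2 and SPRY4 were not called. Without pairing 1 of 10 genes was called higher, against 9.57% of all tested genes, and 0 were called lower, against 1.02%. With the replicate number as a block 4 were called higher, against 13.7%, and 0 lower, against 5.68%. This pairing was inferred from the same libraries and is not stated in the labels. At an unadjusted p under 0.05, 3 genes were higher without the block (14.5% of all tested genes) and 7 with it (18.6%), and 0 were lower in either fit (6.10% and 15.6%). The median log2 fold change of the 10 genes was 0.57 without the block and 0.67 with it, and that of all tested genes was -0.04 in both.

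The unpaired call was DUSP1. The number of called genes was 0 when Control replicate 1, 2 or 3 or BRG1 replicate 1 or 2 was left out, and 3 without BRG1 replicate 3. In the paired fit 4 genes were called without replicate 1, 4 without replicate 2 and 6 without replicate 3. The calls over all genes moved too. Those paired fits called 1652, 1295 and 2391 genes higher, in that order. The unpaired fit called 1795 higher without BRG1 replicate 3, and 1028 to 1120 without any other sample. The largest counts among the genes described here thus came from the fits with the most calls over all genes. Of the genes described here DESeq2 called 2 higher and 0 lower without the block (background 11.0% and 1.84%), and 6 higher and 0 lower with it (13.4% and 6.62%).

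DUSP1 (MKP-1; chromosome 5, 172768096 to 172771195, minus strand) is a nuclear phosphatase that acts on p38, JNK and ERK and is itself induced by growth factors and stress. Control samples 1 to 3 had 60.0, 42.6 and 23.0 CPM, and BRG1 samples 1 to 3 had 389, 185 and 69.4. Every BRG1 sample was above every Control sample, and in both groups sample 1 was the highest and sample 3 the lowest. Within replicate numbers the fold was 6.48, 4.34 and 3.02. The log2 fold change was 2.36 ± 0.61 (SE, edgeR adjusted p 0.0474) and, with the replicate block, 2.14 ± 0.19 (edgeR adjusted p 0.00029). Leaving out a Control sample or BRG1 replicate 1 or 2 gave unpaired adjusted p-values of 0.0828 to 0.162 at log2 fold changes of 1.62 to 2.71.

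IER3 (IEX-1; chromosome 6, 30743199 to 30744548, minus strand) is a stress and growth factor inducible regulator of cell survival. It was measured at 25.8, 25.0 and 8.54 CPM in Control samples 1 to 3 and at 177, 79.6 and 34.7 in BRG1 samples 1 to 3. The groups did not overlap, and the lowest sample was again number 3 in each. The fold within numbers was 6.88, 3.18 and 4.07. The unpaired log2 fold change of 2.3 ± 0.63 (SE) was not called (edgeR adjusted p 0.0604), and the paired one of 2.16 ± 0.20 was (edgeR adjusted p 0.00034). Exons of genes on the other strand, HCG20 and IER3-AS1, cover 38.9% of its exonic bases, and the libraries keep no strand, so their reads cannot be told apart there.

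EGR3 (chromosome 8, 22687659 to 22693480, minus strand) was, in Control cells, the least abundant of the genes that edgeR called with the block. Control samples 1 to 3 had 3.16, 1.06 and 0.47 CPM, and BRG1 samples 1 to 3 had 17.3, 8.46 and 1.79. The groups overlapped, since BRG1 sample 3 lay below Control sample 1, yet the fold within numbers was 5.49, 8.0 and 3.84. The log2 fold change was 2.59 ± 0.90 (SE, edgeR adjusted p 0.139) without the block and 2.52 ± 0.24 (edgeR adjusted p 0.00038) with it. The lowest library rested on 28 estimated counts and the highest on 1122.

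DUSP4 (MKP-2; chromosome 8, 29333064 to 29350684, minus strand), a nuclear phosphatase of ERK and JNK, showed the smallest of the changes that edgeR called with the block. It had 3.24, 5.42 and 1.39 CPM in Control and 6.80, 7.96 and 4.55 in BRG1 samples 1 to 3. BRG1 sample 3 was below Control sample 2, and the fold within numbers was 2.10, 1.47 and 3.26. The paired log2 fold change was 1.08 ± 0.25 (SE, edgeR adjusted p 0.0229) and the unpaired one 0.95 ± 0.47 (edgeR adjusted p 0.318).

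**Figure D1:**
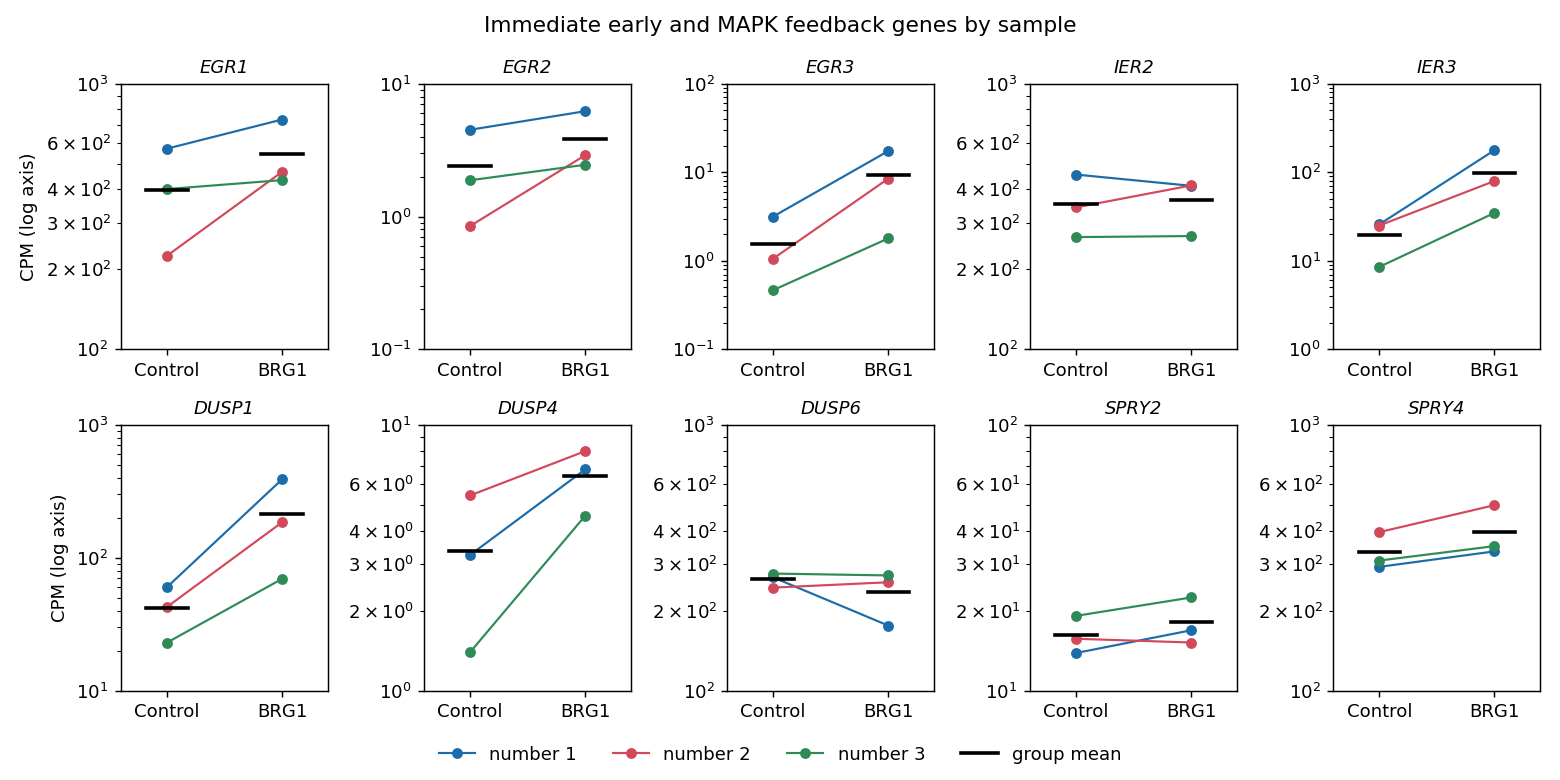
CPM of each of the 10 genes (log axes that differ between panels) in Control and BRG1 samples, with lines joining samples of the same replicate number and black bars at the group means. DUSP1 rose from 23.0 to 60.0 CPM in Control to 69.4 to 389 in BRG1 samples, whereas DUSP6 lay between 176 and 276 CPM in all 6.

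EGR1 (chromosome 5, 138465479 to 138469303, plus strand), the prototype of its family, was abundant in both groups. It had 569, 225 and 401 CPM in Control and 733, 466 and 434 in BRG1 samples 1 to 3. The groups overlapped, with Control sample 1 above BRG1 samples 2 and 3. BRG1 was higher within each number, by 1.29, 2.07 and 1.08-fold, and the paired log2 fold change of 0.51 (95% interval 0.11 to 0.90) was not called (edgeR adjusted p 0.0791). DESeq2 with the block called it (adjusted p 0.0143), as did the paired edgeR fit without replicate 3 (adjusted p 0.00467). The paired edgeR fit did not call it without replicate 1 (adjusted p 0.0603) or without replicate 2 (adjusted p 0.335). Without the block the log2 fold change was 0.45, with a 95% interval of -0.33 to 1.23 (edgeR adjusted p 0.542).

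EGR2 (chromosome 10, 62811996 to 62819167, minus strand), also known for its role in myelinating cells, was low. Control samples 1 to 3 had 4.49, 0.847 and 1.87 CPM and BRG1 samples 1 to 3 had 6.20, 2.89 and 2.45. Its lowest sample was Control sample 2, as for EGR1, and the fold within numbers was 1.38, 3.41 and 1.31. The paired log2 fold change was 0.83 with a 95% interval of 0.10 to 1.56 (edgeR adjusted p 0.11), and it was called without replicate 3 (adjusted p 0.0404). It was not called without replicate 1 (adjusted p 0.139) or without replicate 2 (adjusted p 0.417). DESeq2 with the block (adjusted p 0.101) and edgeR without it (adjusted p 0.615) did not call EGR2 either.

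IER2 (chromosome 19, 13150411 to 13154911, plus strand), a nuclear protein gene induced along with FOS, had group means of 354 ± 95.6 CPM (SD, n = 3) in Control and 365 ± 84.4 (n = 3) in BRG1 cells. Control samples 1 to 3 had 455, 342 and 265 CPM, and BRG1 samples 1 to 3 had 413, 414 and 267. The paired 95% interval of the log2 fold change was -0.19 to 0.28 around 0.05 (edgeR adjusted p 0.770), and the sign turned when some samples were left out. Antisense genes cover 52.2% of its exonic bases.

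DUSP6 (MKP-3; chromosome 12, 89347235 to 89352501, minus strand) is a cytoplasmic phosphatase selective for ERK and a common readout of ERK activity. It was measured at 267, 244 and 276 CPM in Control and 176, 256 and 271 in BRG1 samples 1 to 3. BRG1 sample 1 was the low one, with a fold of 0.659 within its number against 1.05 and 0.984 in the others. The paired log2 fold change was -0.19, with a 95% interval of -0.50 to 0.13 (edgeR adjusted p 0.380), and it was 0.021 without replicate 1. An antisense gene covers 28.6% of its exonic bases.

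SPRY2 (chromosome 13, 80335976 to 80341126, minus strand) and SPRY4 (chromosome 5, 142310427 to 142326455, minus strand) encode Sprouty inhibitors of receptor tyrosine kinase signaling. SPRY2 had 13.9, 15.7 and 19.1 CPM in Control and 16.9, 15.2 and 22.4 in BRG1 samples 1 to 3, and the groups overlapped. Its paired log2 fold change of 0.16 had a 95% interval of -0.13 to 0.44 (edgeR adjusted p 0.405). SPRY4 had 292, 395 and 309 CPM in Control and 334, 499 and 350 in BRG1 samples 1 to 3. It was higher within each number by 1.14, 1.26 and 1.13-fold, a paired log2 fold change of 0.24 with a 95% interval of 0.05 to 0.43 that edgeR did not call (adjusted p 0.0850) and DESeq2 with the block did (adjusted p 0.0342). Without the block the edgeR adjusted p of SPRY4 was 0.544.

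**Figure D2:**
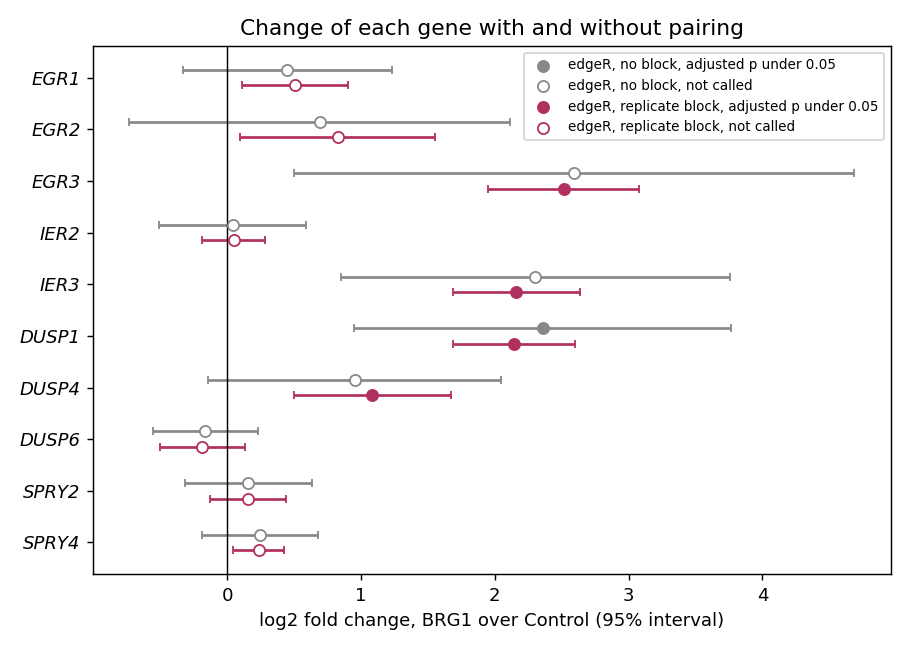
Log2 fold change of BRG1 over Control for each of the 10 genes (horizontal axis), with 95% intervals, from edgeR without the block (gray) and with the replicate block (red). Filled points are called at an adjusted p under 0.05, and pairing narrows the interval of EGR3 from 0.50 to 4.69 down to 1.95 to 3.08.

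BRG1 was higher within each replicate number for 7 of the 10 genes, against 26.2% of all tested genes. The groups were fully separated, with BRG1 above, for 2 of 10 (DUSP1 and IER3), against 15.9%. For IER2 and SPRY2 2 of 3 numbers were higher and for DUSP6 1 of 3.

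How the genes varied between replicates was then compared. DUSP1, IER3, EGR3, IER2 and DUSP4 had their lowest value in sample 3 of both groups. Within Control the highest sample exceeded the lowest 6.77-fold for EGR3, 5.30-fold for EGR2, 3.89-fold for DUSP4 and 2.61-fold for DUSP1, but 1.13-fold for DUSP6 and 1.35-fold for SPRY4. Within BRG1 the ratio was 9.68 for EGR3, 5.61 for DUSP1 and 5.10 for IER3. BRG1 replicate 3 was the shallowest library (29699741 estimated counts), while Control replicate 3 held 61519212. SMARCA4 in BRG1 samples 1 to 3 was at 2316, 1714 and 1729 CPM. BRG1 samples 2 and 3 were alike in SMARCA4 and differed 2.7-fold in DUSP1. What sets sample 3 apart was not tested. As deviations of log2 CPM from the group means over the 6 samples, DUSP1 followed IER3 (Pearson r 0.97) and EGR3 (0.97), and EGR1 followed EGR2 (0.99) more than DUSP1 (0.49). DUSP6 (-0.80) and SPRY2 (-0.82) both ran against DUSP1. These points share libraries and the coefficients are descriptions over n = 6.

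**Figure D3:**
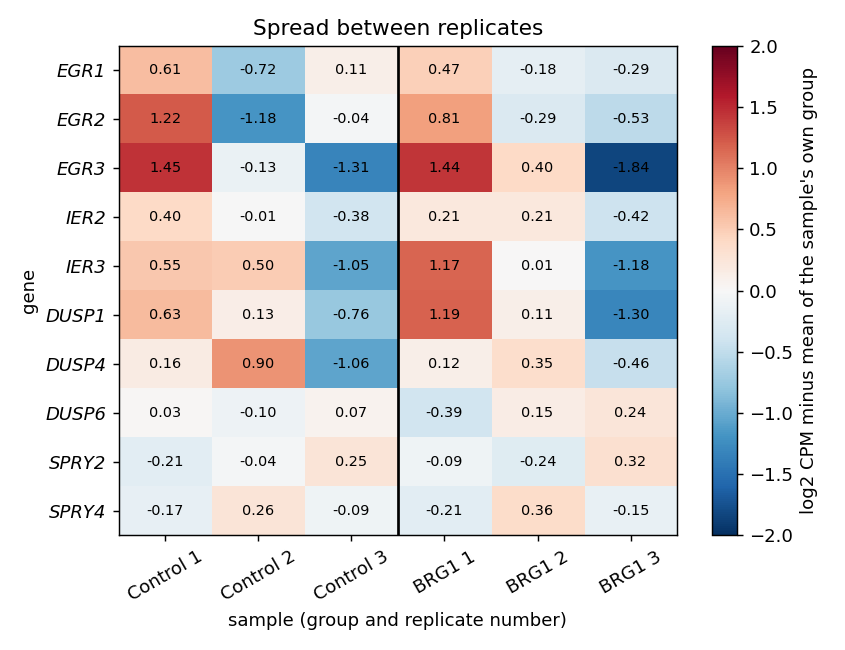
Log2 CPM of each gene minus the mean of the sample's own group, by sample (columns) and gene (rows), with red above and blue below the group mean. Sample 3 is low in both groups for EGR3 (-1.31 and -1.84), IER3 (-1.05 and -1.18) and DUSP1 (-0.76 and -1.30).

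Over all 6 samples the genes whose log2 CPM was most like that of EGR1, among 11753 genes with a mean of at least 100 counts, were KIAA1462 (Pearson r 0.99), RP11-544M22.13 (0.99) and EGR2 (0.99). For DUSP6 they were PCDH17, GXYLT2 and GPM6B (0.99 each). Many genes reach such values over 6 samples, and no test was made.

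Levels were compared between genes per kilobase of the canonical transcript. In Control the order of the mean level in CPM per kilobase was IER2 (168 ± 45.3), EGR1 (127 ± 54.9), DUSP6 (72.3 ± 4.49), SPRY4 (67.7 ± 11.3), DUSP1 (20.8 ± 9.21), IER3 (16.0 ± 7.87), SPRY2 (7.10 ± 1.17), EGR2 (0.807 ± 0.631), DUSP4 (0.604 ± 0.363) and EGR3 (0.346 ± 0.313; SD, n = 3 each). The Control samples of neighbours in this order overlapped, except that SPRY4 was above DUSP1 and SPRY2 above EGR2 in every sample. In BRG1 samples the mean level in CPM per kilobase was 107 ± 80.5 for DUSP1 and 78.5 ± 58.9 for IER3, beside 80.4 ± 18.5 for SPRY4 and 64.6 ± 14.1 for DUSP6, and the samples of DUSP1 and IER3 overlapped those of SPRY4 and DUSP6.

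The other genes of the pathway were then examined from lists. For comparison, edgeR called 9.57% of all tested genes higher and 1.02% lower without the block. With the block it called 13.7% higher and 5.68% lower. In either fit 44.3% of all tested genes had a log2 fold change above 0. Over all genes the unpaired fit called 1795 higher without BRG1 replicate 3, and 1028 to 1120 without any other sample. Of 29 other immediate early genes 26 had a log2 fold change above 0. Without the block 2 were called higher (between 1 and 7 when a sample was left out, 7 without BRG1 replicate 3), and with it 17 were called higher and 0 lower, also 0 lower by DESeq2 and at an unadjusted p under 0.05. IER5, a relative of IER2, rose in both fits, from 12.7 to 19.9 CPM in Control to 40.7 to 78.3 in BRG1 samples (paired log2 fold change 1.76 ± 0.10 (SE), edgeR adjusted p 3.7e-05). CTGF, a matricellular gene induced by YAP and serum, rose in both fits as well (2.5 ± 0.39, edgeR adjusted p 0.00431). CYR61, its relative, had a paired log2 fold change of 1.64, GADD45B, a stress sensor, of 1.68, KLF6, a zinc finger factor, of 1.11 and JUN, a subunit of AP-1, of 0.62. In edgeR these 4 were called with the block alone, and their unpaired edgeR adjusted p-values ran from 0.147 to 0.635, while unpaired DESeq2 called KLF6 (adjusted p 0.0292).

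Among 15 other MAPK feedback genes 12 were above 0. Without the block 3 were called higher (9.57% of all tested genes) and with it 6 (13.7%). In either fit 0 were called lower (1.02% and 5.68% of all tested genes), also 0 by DESeq2 and 0 at an unadjusted p under 0.05. The unpaired count was 1 without Control replicate 2 and 6 without BRG1 replicate 3. DUSP10, a phosphatase of p38 and JNK, rose from 0.14 to 1.13 CPM in Control to 4.46 to 19.5 in BRG1 samples (paired log2 fold change 4.33 ± 0.22 (SE), edgeR adjusted p 1.6e-05). SPRY1 rose from 2.44 to 2.67 CPM to 8.15 to 14.8 (2.06 ± 0.20, edgeR adjusted p 0.00040), unlike SPRY2 and SPRY4, although that difference was not tested. IL17RD, an inhibitor of FGF signaling, rose by a paired log2 fold change of 0.66 and was called in both fits. DUSP5, a nuclear ERK phosphatase, DUSP14 and ERRFI1, an inhibitor of EGFR, were called by edgeR with the block alone, with paired log2 fold changes of 1.37, 0.97 and 0.56, and unpaired DESeq2 called DUSP14 (adjusted p 0.0281).

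The list of 7 ERK output genes was split. CCND1, the gene for cyclin D1, rose from 12.3 to 36.1 CPM in Control to 59.0 to 245 in BRG1 samples (paired log2 fold change 2.66 ± 0.14 (SE), edgeR adjusted p 2.0e-05) and was the 1 gene that edgeR called without the block, where DESeq2 called 3. That call was lost without Control replicate 2 or BRG1 replicate 2 (0 genes), and 3 genes were called without BRG1 replicate 3. With the block 3 were called, the others being PHLDA1 (1.72) and the receptor EPHA2 (1.14). Over all tested genes edgeR called 9.57% higher without the block and 13.7% with it. ETV1, ETV4 and ETV5, ETS factors that follow ERK activity in many cancers, had paired log2 fold changes of -0.29, -0.34 and -0.14 and were not called, and 0 genes of the list were called lower by either edgeR fit or by DESeq2 (unadjusted p under 0.05 for 0 genes without the block and 1 with it).

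Of 28 genes of the cascade itself 10 were above 0 and 0 were called in either direction without the block (unadjusted p under 0.05 for 3 higher and 3 lower genes, and 0 called by DESeq2), with 2 higher when BRG1 replicate 3 was left out. With the block 2 were higher, the scaffold KSR1 (0.69) and the MEK1 gene MAP2K1 (0.51). Lower were 3, SRF (-0.38), its partner ELK1 (-0.37) and the ubiquitin ligase CBL (-0.32). At an unadjusted p under 0.05, 3 of the 28 were higher and 8 lower with the block, against 18.6% and 15.6% of all tested genes. Without the block those shares of all tested genes were 14.5% and 6.10%. Of all tested genes edgeR called 9.57% higher and 1.02% lower without the block, and 13.7% and 5.68% with it. The median paired log2 fold change was -0.12 for the cascade, against 0.50 for the other immediate early genes, 0.23 for the other feedback genes, 1.11 for the ERK output genes and -0.04 for all tested genes. In the split ERK output list, with 4 of 7 genes above 0, that median is the value of EPHA4, which paired edgeR did not call (adjusted p 0.0602).

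**Figure D4:**
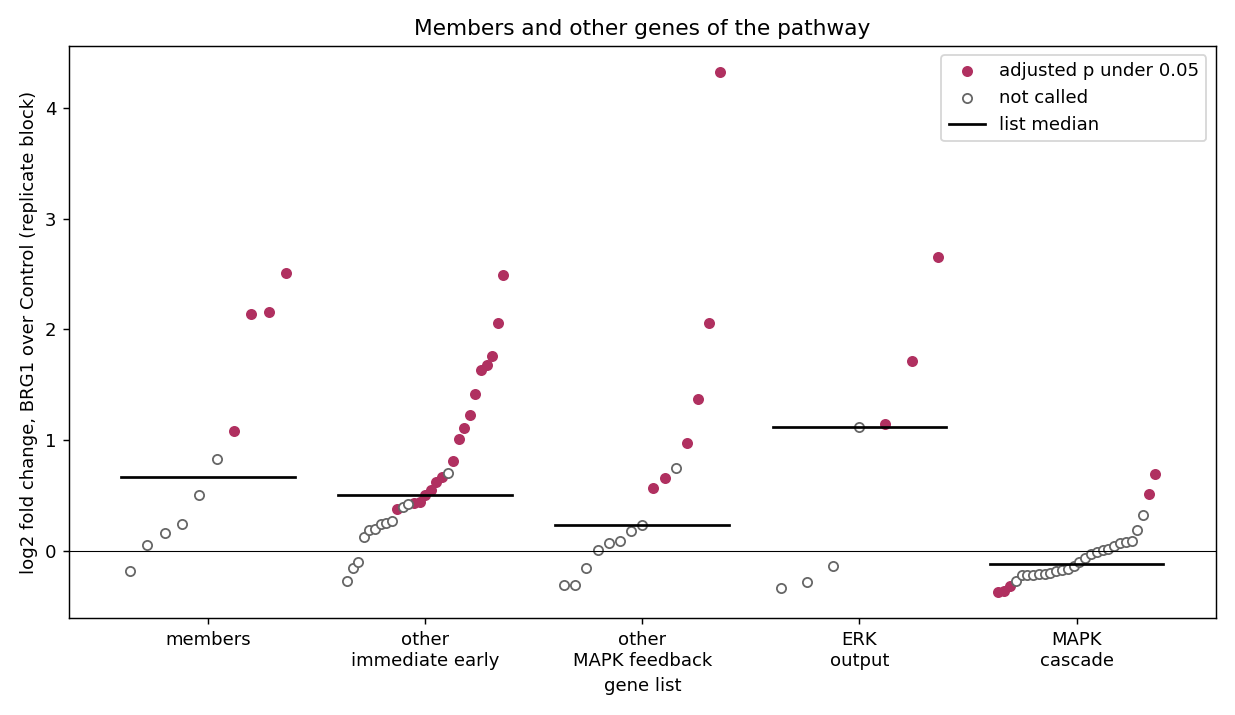
Log2 fold change of BRG1 over Control from edgeR with the replicate block (vertical axis) for the 10 genes (members) and the 4 other lists, sorted within each list, with black lines at the list medians. Filled points are called at an adjusted p under 0.05, and the called cascade genes lie between -0.38 and 0.69 while DUSP10 among the feedback genes reaches 4.33.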

How the data were processed

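Per the file and the study's methods, the authors aligned reads with STAR (2.5.3a, hg38), quantified transcripts with Salmon (0.8.2) and used tximport to reach gene level. The table they deposited holds an estimated count for each symbol and sample, built from length-scaled TPM and not divided by depth. Reads fitting several genes were shared out by the model, and libraries (500 ng RNA, paired reads of 78 bases) kept no strand.

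Estimated counts were rounded and tested over all genes with edgeR 4.0.16 in R 4.3.3 (quasi-likelihood, TMM, filterByExpr, Benjamini-Hochberg adjustment over 14246 genes). The study used DESeq2, with no formula stated. DESeq2 1.42.0 was an alternative here, because it made more false calls than its threshold on simulated data. Same-numbered samples deviated together, with correlations of their deviations from group means of 0.48, 0.49 and 0.56 over 14246 genes. Samples of unlike number had correlations from -0.49 to 0.07. Deviations within a group cancel out, so these correlations are not independent of each other. Pairing by replicate number was thus inferred from the same libraries, and the labels do not say what a number shares. The fit without the block was the main one and the block an alternative. The design calls the samples biological replicates.

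The 10 genes and all lists, heat shock and EGR corepressor genes included, were chosen with earlier results of these data known. From each list up to 6 genes called in either edgeR fit were named by smallest paired adjusted p, and 3 genes were named for likeness to EGR1 and to DUSP6. Others were chosen after their values were seen. Positions, exon overlaps and lengths are from GENCODE release 44 (GRCh38), which is not the authors' release. Intervals are 95%. Alternatives were median-ratio size factors, no filter or 10 counts in 3 samples, a threshold of 0.01, DESeq2, the block, and leaving out samples or pairs.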

Additional observations from a re-analysis of the deposited data

How the results depend on the processing

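SMARCA4 was called in every alternative. The number of the 10 genes called higher (1) was 2 with DESeq2 or without the low-count filter, 4 with edgeR and the replicate block, 6 with DESeq2 and the block and 0 at an adjusted p under 0.01. It ran from 0 to 3 when a sample was left out and from 4 to 6 when a pair was left out of the blocked fit. No gene of the 10 was called lower in any setting (0). The log2 fold change of IER2 (0.043) ran from -0.13 to 0.26 when a sample was left out and turned to -0.13 without Control replicate 3, -0.05 without BRG1 replicate 1, -0.02 without BRG1 replicate 2 and -0.066 with the block and without replicate 2. That of DUSP6 (-0.16) ran from -0.25 to 0.0079 when a sample was left out and turned to 0.0079 without BRG1 replicate 1 and 0.021 with the block and without replicate 1. The other 8 genes kept their sign in every alternative run. For all these the cause was not tested beyond the samples named.

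Over all genes 1364 were called higher, 2095 with DESeq2 and the block, and up to 2391 with a pair left out of the blocked fit and down to 1028 with a sample left out. Lower calls (146) were 294 with DESeq2, 809 with edgeR and the block, 1035 with DESeq2 and the block and 31 at 0.01, from 39 to 256 without a sample and from 114 to 1048 without a pair (330 without replicate 1). Other immediate early genes called higher (2) were 4 with DESeq2, 17 and 19 with the block (edgeR and DESeq2) and 1 at 0.01, from 1 to 7 without a sample and 9 to 20 without a pair (15 without replicate 1). Other feedback genes called higher (3) were 6 with the block in either tool, from 1 to 6 without a sample and 5 to 6 without a pair. ERK output genes called higher (1) were 3 with DESeq2, 3 and 4 with the block and 0 at 0.01, from 0 to 3 without a sample and 3 to 4 without a pair, and called lower (0) were 0 to 1. Cascade genes called higher (0) were 2 and called lower (0) were 3 with the block in either tool, from 0 to 2 higher without a sample, and 0 to 3 higher and 0 to 2 lower without a pair. Heat shock genes called higher (0) were 1 with DESeq2, 2 and 3 with the block, 0 to 1 without a sample and 0 to 3 without a pair, and called lower (0) were 1 and 2 with the block.

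Counts were lowest for EGR2, EGR3 and DUSP4, whose lowest libraries held 33, 28 and 85 estimated counts. For EGR3 and DUSP4 that was Control replicate 3, a library of 61519212 counts.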

Other observations

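The genes NAB1 and NAB2, whose proteins repress EGR factors, were not called in either edgeR fit or by DESeq2 (0 of 2, with an unadjusted p under 0.05 for 0 without the block and for 1, lower, with it). NAB1 had 153 to 191 CPM in Control and 133 to 149 in BRG1 samples, a paired log2 fold change of -0.26, and NAB2 one of -0.07.

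Of 8 heat shock genes, which respond to protein damage, 0 were called by edgeR without the block (unadjusted p under 0.05 for 1 higher and 1 lower gene, and 1 called higher by DESeq2). With the block HSPB1 (log2 fold change 0.50) and the cochaperone BAG3 (0.37) were called higher and HSPA1A (-0.35) lower. Of all tested genes 13.7% were called higher and 5.68% lower in that fit. At an unadjusted p under 0.05 it had 3 heat shock genes higher and 3 lower, against 18.6% and 15.6% of all tested genes. HSPA1A and HSPA1B are near-identical copies, and how reads were split between them is not known. The summed level of the list was 4234 to 4912 CPM in Control and 3562 to 4636 in BRG1 samples, so the groups overlapped.

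VWF, a clotting factor of endothelial cells, had 0.57 to 1.78 CPM in Control and 69.9 to 79.5 in BRG1 samples (edgeR adjusted p 0.00014), and CDH5, the endothelial cadherin gene, had 0 to 0.03 and 0.95 to 5.79 CPM. Among the granulosa genes CYP19A1, which encodes aromatase, rose by a log2 fold change of 3.74 and INHBA, an activin subunit gene, by 2.92 (edgeR adjusted p 0.00072 and 0.0161). Of the other granulosa genes AMH (0.45) and INHA (-0.15) were not called (edgeR adjusted p 0.406 and 0.850), and 4 were under 1 CPM in every sample. VWF, CDH5, CYP19A1 and INHBA were named after their values were seen.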
